A study of Mus musculus with 4 samples.

Results

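The genes described here are the brighter genes of a microarray series on 3T3-L1 adipocytes, in which the effect of a pig testis extract (PT) was measured without and with the soy isoflavone daidzein. They number 12168 of the 34795 gene names on the arrays. A gene was kept when its probe was well above background on all 4 arrays (18253 genes) and its mean level lay in the upper 2 of 3 equal parts. For each of them the departure from additivity was computed on the log2 scale: the PT difference in the presence of daidzein less that in its absence. A departure of 0 means that PT multiplied the signal by the same factor in both settings; a positive departure means that the culture with both agents was brighter than the product of the separate effects. The members were chosen by signal and not by departure, but the earlier results that led to this choice of genes came from the same arrays, so the values are given as descriptions without a test.

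3T3-L1 is an established mouse fibroblast line that turns into fat-storing cells in culture, and the labels give the cells as adipocytes. The cells received PBS, daidzein at 25 uM, PT at 100 ug/ml, or daidzein at 25 uM together with PT at 100 ug/ml, in every case for 7 days. RNA of each group was hybridised to 1 single-colour array of 60-base probes, so no group has a replicate and no p-value is given, and the number of arrays limits the precision. The composition of the extract and the solvent of daidzein are not given in the sources used here. PBS and daidzein+PT lay in the inner columns of the slide and daidzein and PT in the outer ones, so a difference between inner and outer columns cannot be told apart from a departure. Of 10 adipocyte markers 9 were well above background on all 4 arrays, and their summed level was 7.36 with PBS, 9.52 with daidzein, 8.31 with PT and 10.25 with both (log2). Summed markers of myeloid cells stayed between 4.91 and 5.0, of endothelial cells between 3.70 and 3.80 and of testis cells between 3.79 and 3.91. Summed markers of preadipocytes or fibroblasts were at 9.72 on both arrays without daidzein and at 9.44 and 9.48 with it. Those of skeletal muscle, with 9 of 22 well above background, were at 2.37 and 2.36 without daidzein and 1.91 and 1.98 with it. Of the 3 muscle genes among the members, Cox6a2 was at 0.27 with PBS and -1.24 with daidzein. Acta1 (-0.63 and -0.46) and Myl4 (0.78 and 0.82) were not lower with daidzein. The part of these markers in the departures was not tested. In a whole culture, fewer cells of a type and less RNA per cell cannot be told apart.

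Adipocytes form when PPARg and C/EBPa switch on the genes of lipid storage, and the mature cell adds mitochondria, lipid-synthesis enzymes and secreted hormones such as adiponectin. Daidzein is a plant compound that binds estrogen receptors. Additivity on the log2 scale is a convention for comparing agents: effects that multiply give a departure of 0, and effects that only sum on the linear scale give a negative one when both are increases.

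The departure was small for most brighter genes and its centre lay slightly above 0. Over the members its median was 0.05 and its SD 0.18, with quartiles of -0.05 and 0.14 and a range from -2.52 to 1.89. In the dimmest of the 3 parts, which is not described further, the SD was 0.46. It was 0.20 in the middle part and 0.16 in the brightest. At 1.5-fold or more, 43 members lay above additivity (0.353%) and 75 below it (0.616%), against 2.39% and 3.02% of all 18253 genes. At a departure of 0.3219 or more in size on the log2 scale, the smaller threshold, which is written as 0.32 below, the counts were 510 (4.19%) and 363 (2.98%), and at 2-fold 4 (0.0329%) and 7 (0.0575%). In all, 62.8% of the members lay above 0 and 37.2% below. The members just inside the limit of level were Kdm8 (0.21), Oxsm (0.09) and Il27 (0.32), and those just outside were Prune2 (-0.13), Prkaca (0.38) and Akna (0.05).

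**Figure D1:**
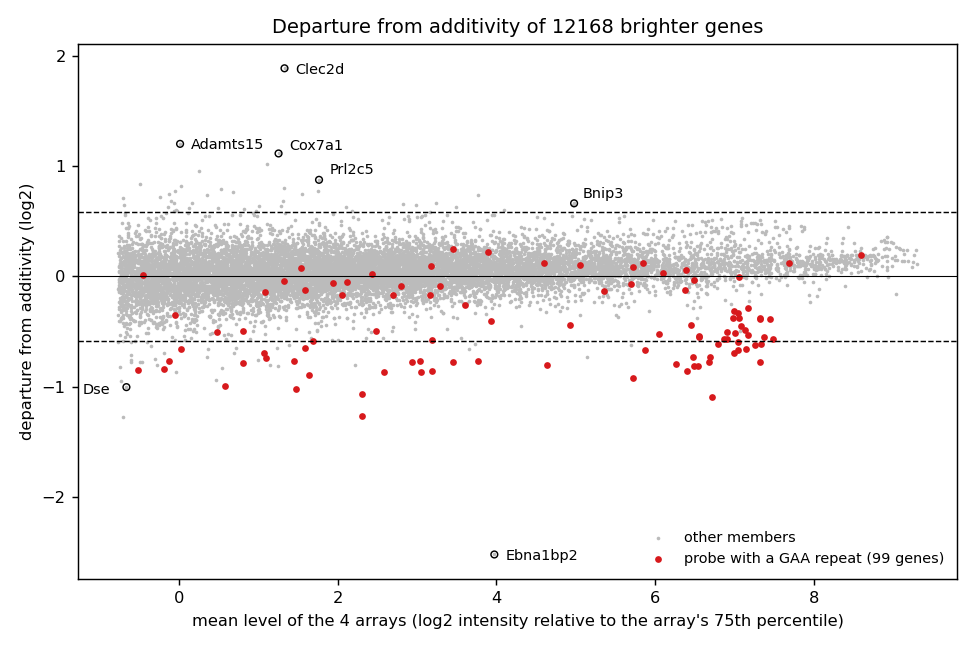
Each point is 1 of the 12168 brighter genes, placed by its mean level on the 4 arrays (log2 intensity relative to the array's 75th percentile) and its departure from additivity (log2); dashed lines mark 1.5-fold and red points are the 99 genes whose probe holds AAGAAGAAG. The cloud narrows with level, and 85 of the 99 red points lie below 0.

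The zero of this scale is the 75th percentile of each array. Of 6 spike-in probes, foreign transcripts added in equal amount to every labelling, the departures ran from -0.05 to 0.15 with a median of 0.13. Set to the spike-ins, 18 members lay 1.5-fold or more above additivity and 147 below it, and the members' median was -0.08. With the array median in place of the 75th percentile these values were 111, 54 and 0.15. A small departure shared by many genes therefore has no fixed sign, and gene groups are compared below with the members' median. Probes of high GC content had higher departures: the median was 0.01 up to 35% GC and 0.11 above 55%. Replicate spots of 180 probes gave a median SD of 0.06, and the medians of 36 blocks of spots on the array ran from 0.01 to 0.10.

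Genes read by probes with a GAA repeat made up much of the lower tail. The probes of 99 members (0.814%) hold AAGAAGAAG on their printed strand, and these are 40 of the 75 genes at 1.5-fold or more below additivity (53.3%) and 0 of the 43 above. The repeat was noticed among the lowest genes, so these shares describe the tail and do not test it. The probes below are shown because their sequence is what these genes share; they are the lowest 4 of those the files describe as unknown that have a position on an assembled chromosome, and capitals mark the GAA repeat in runs of 9 or more bases with its partial ends. Positions are on mm9, as in the files; whether they lie in an exon, an intron or a UTR was not analysed here.
A_55_P2096127, chr13:102097429-102097488, minus strand, departure -1.09: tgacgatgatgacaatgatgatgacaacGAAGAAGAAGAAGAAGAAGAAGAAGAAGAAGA
A_55_P1989765, chr7:118276941-118277000, minus strand, departure -1.06: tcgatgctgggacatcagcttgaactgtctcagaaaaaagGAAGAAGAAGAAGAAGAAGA
A_55_P1987847, chr2:29906910-29906969, plus strand, departure -1.0: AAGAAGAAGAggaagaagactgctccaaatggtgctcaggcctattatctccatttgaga
A_55_P1962004, chr9:90335307-90335366, minus strand, departure -0.85: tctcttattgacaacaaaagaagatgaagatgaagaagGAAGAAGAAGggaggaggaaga

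The GAA probes were highest on the PT array. The level of A_55_P2096127 was 6.64 with PBS, 6.57 with daidzein, 7.41 with PT and 6.25 with both (log2). PT alone thus stood above the other 3 arrays. A_55_P1989765 was at 2.26, 2.24, 2.91 and 1.84 in the same order, and A_55_P1987847 at 0.37, 0.23, 1.44 and 0.30. The PT array was the highest of the 4 for 79 of the 99 GAA probes (79.8%), against 17.9% of all members. Their median PT difference was 0.43 without daidzein and -0.02 with it, and their median departure was -0.52, with 85 of 99 below 0. The median over members without the repeat was 0.05.

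The departure went with the length of the repeat up to 15 bases. It was -0.01 for the 46 probes whose longest stretch of whole GAA units is 9 bases (in any of 3 phases, so that some lack AAGAAGAAG itself), -0.58 for 19 probes with 12 bases, -0.78 for 7 probes with 15 bases and -0.57 for 44 probes with 18 or more, all 44 below 0. Probes with 6 bases of repeat (956 genes) had a median of 0.05, as did those with less. The complementary repeat CTTCTTCTT had a median of -0.02 (9 genes), GGAGGAGGA -0.11 (31 genes) and CAGCAGCAG 0.10 (14 genes). In the dimmest part of the genes the median of 17 GAA probes was -0.61. However, among 3144 other probes above the same limit of level that were not chosen to represent a gene, 15 hold the repeat. The median of these 15 was -0.05 with 8 below 0. The repeat was therefore not low on every probe that carries it. Level and length of repeat were not compared between the 15 and the 99. GAA probes were bright, with a median level of 5.35 against 2.30 for all members, and only 27 of the 99 carry a gene symbol.

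**Figure D2:**
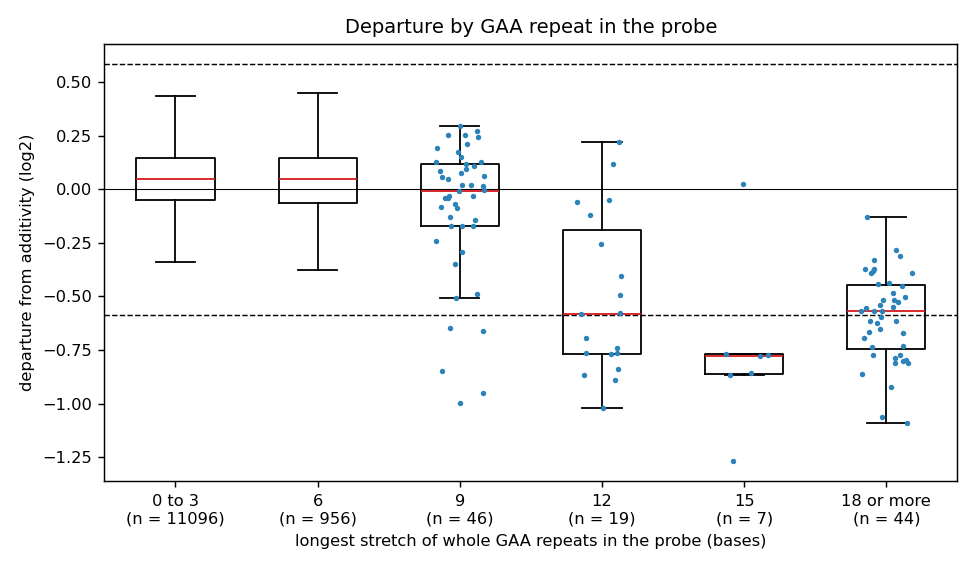
Departure from additivity (log2) of the brighter genes by the longest stretch of whole GAA repeats in the probe (bases); boxes give the median and quartiles, whiskers reach 1.5 times the box, and points are single genes in groups under 100. All 44 genes with 18 or more bases lie below 0, and those with 9 bases spread around it.

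Several named genes at the lower end are read by such probes. Of the 12 symbols with the most negative departure, Trpm1 (-1.02), Cmya5 (-0.89), Slc16a7 (-0.84), Gab3 (-0.81), Akap7 (-0.78) and Gcm1 (-0.78) have GAA-repeat probes. Akap7, a protein that anchors protein kinase A, has other bright probes without the low value, with departures of 0.07 and 0.11. The files place the Gcm1 probe on chromosome 7, whereas RefSeq places the gene on chromosome 9, and the other Gcm1 probe had -0.56. Probe and gene lay on different chromosomes for 4 of 30 GAA probes that could be compared, against 39 of 9485 members, so such values are uncertain as measures of the named transcript. With the mean over all probes of a gene the departure was -0.20 for Akap7 and -0.40 for Gab3. Without the GAA probes, 43 members lay 1.5-fold or more above additivity and 35 below, with an SD of 0.175 in place of 0.183.

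Another group defined by sequence lay at the upper end. It consists of 4 predicted genes near the start of the chromosome 9 assembly, where copies of the centromeric satellite repeat are annotated as transcripts. Their probes are shown because 3 of them are nearly the same. The group was noticed after its values were seen. Positions are on mm9, on the plus strand.
Predicted gene 10720, chr9:3004200-3004259: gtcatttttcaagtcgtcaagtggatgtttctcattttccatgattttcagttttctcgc
Predicted gene 10718, chr9:3024224-3024283: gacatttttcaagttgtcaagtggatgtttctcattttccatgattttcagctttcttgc
Predicted gene 10715, chr9:3038257-3038316: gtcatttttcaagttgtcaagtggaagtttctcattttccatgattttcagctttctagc
Predicted gene 10716, chr9:3030720-3030779: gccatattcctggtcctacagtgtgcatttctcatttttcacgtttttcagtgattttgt

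The first 3 probes share 56 or 57 of 60 letters with one another and 38 to 40 with the other, so they may read the same transcripts and are not independent. All 4 were lowest on the PT array. Predicted gene 10720 was at 3.21 with PBS, 2.97 with daidzein, 2.68 with PT and 3.09 with both (log2). Predicted gene 10715 was at 1.81, 1.60, 1.14 and 1.68 in that order. The PT difference was between -0.66 and -0.42 without daidzein and between 0.06 and 0.21 with it, and the departures were 0.64, 0.59, 0.75 and 0.63 in the order of the sequences.

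The named genes at the upper end were mostly highest with both agents. Clec2d, a C-type lectin-like ligand, had the largest departure (1.89): its level was 1.63 with PBS, 0.39 with daidzein, 1.33 with PT and 1.98 with both (log2). It was low on the daidzein array alone. Adamts15, a secreted protease that cleaves proteoglycans, was at -0.08, -0.42, -0.15 and 0.72, which puts the culture with both agents above the other 3 (departure 1.20). Cox7a1, a subunit of cytochrome c oxidase that is abundant in muscle and brown fat, was at 0.55, 1.22, 0.73 and 2.52. Its departure was 1.11, from a PT difference of 0.18 without daidzein and 1.30 with it.

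Further genes had the same form as Cox7a1. Ang3, of the angiogenin family of ribonucleases, was at -0.41 with PBS, 0.42 with daidzein, -0.40 with PT and 1.39 with both (departure 0.95). Ltc4s, the leukotriene C4 synthase, was at 0.47, 1.47, 0.77 and 2.56 (0.80). Rgcc, a regulator of the cell cycle, was at -0.41, -0.25, -0.11 and 0.86 (0.82). In each the array with both agents was the highest of the 4.

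Ak4, a mitochondrial adenylate kinase, was at -0.52, -0.64, -0.76 and -0.03 in the order PBS, daidzein, PT and both (0.83), so both agents together again gave the highest level. The other genes of the upper 12 were lower than PBS on both arrays with a single agent. Prl2c5, of the proliferin family, was at 2.56, 0.87, 2.22 and 1.41 (0.88), and its other bright probe had 0.88 too. Members of the proliferin family are near-identical copies, so its value is uncertain as to the copy. For Spr, the sepiapterin reductase of tetrahydrobiopterin synthesis, the levels were 1.96, 1.60, 1.53 and 1.95 (0.77), so the culture with both agents was back at the level of PBS. Zmynd19 (0.79), the nuclear lamina gene Lmnb1 (0.77) and the interleukin-3 receptor chain Il3ra (0.76) were also lower on the arrays with 1 agent than with PBS.

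Among those of the lowest 12 genes that have no GAA probe, no single form prevailed. Ebna1bp2, a nucleolar protein of ribosome assembly, had the most negative departure (-2.52): it was at 2.02 with PBS and between 4.59 and 4.68 on the other 3 arrays. The value rests on the PBS array: the gene's other bright probe had 0.03, and the mean over its probes -0.93. Dse, the dermatan sulfate epimerase, was at -0.65, -0.85, 0.03 and -1.18 in the order PBS, daidzein, PT and both (-1.0). Washc4, of the complex that sorts endosomes, was at -0.43, 0.04, -0.18 and -0.51 (-0.80). Slc13a4, a sulfate transporter, was higher with each agent, at -2.70 with PBS, 0.46 with daidzein, -1.03 with PT and 1.34 with both (-0.78). Its PT difference was 1.67 without daidzein and 0.89 with it, so both agents together gave less than the product of their effects and still the highest level. With normexp background correction the departure was -0.25, and with no background subtraction -0.20.

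**Figure D3:**
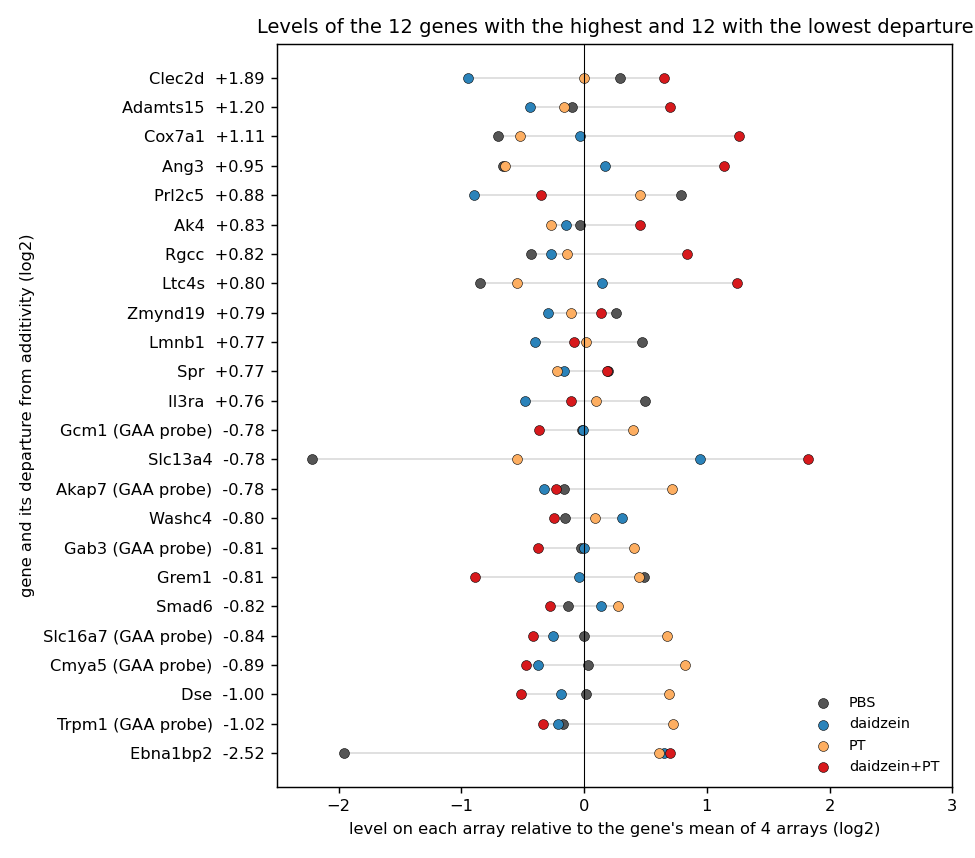
Level of each gene on the 4 arrays relative to its own mean (log2), for the 12 genes with a symbol that have the most positive and the 12 that have the most negative departure; the departure stands beside the name. The array with both agents is highest for Adamts15, Cox7a1, Ang3 and Ltc4s, and the PT array is highest for the genes with a GAA probe.

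The form of the departure differed between the tails. Of the 43 members at 1.5-fold or more above additivity, 23 had a PT difference under 0.32 in size without daidzein and a higher level by at least that with it (log2). Of the others, 13 were lower with PT alone and under 0.32 with daidzein, 4 went from lower to higher, and 3 were higher in both. The level most distant from the median of the gene's 4 levels was that with both agents for 23 of the 43. Of the 75 members below additivity, 45 were higher with PT alone and under 0.32 with daidzein, 15 went from higher to lower, 8 were lower in the presence of daidzein only, and 7 were higher in both. The most distant level was that with PT for 51 of the 75. GAA-repeat probes read 40 of these 75, and 79 of all 99 such probes were highest on the PT array. The forms of the 35 without the repeat were not counted apart. Where genes of either tail without a GAA repeat had further bright probes, 6 of 7 probes (5 genes) and 10 of 12 probes (7 genes) lay at 0.32 or more on the same side.

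The genes with the largest daidzein differences lay mostly below additivity. Averaged over both pairs of arrays, 30 members without a GAA probe were more than 4-fold higher with daidzein, and 26 of these lay below 0, with a median departure of -0.25. Some of them serve lipid storage: the lipid-droplet protein Cidec (-0.73, and -0.66 on its other probe), the glycerol-phosphate dehydrogenase Gpd1 (-0.62), the fatty acid binding protein Fabp4 (-0.49), the droplet coat protein Plin1 (-0.46), the fatty acid transporter Cd36 (-0.42), the triglyceride lipase Pnpla2 (-0.31) and the adipocyte hormone adiponectin, Adipoq (-0.24). Others, such as the cytochrome P450 Cyp2e1 (-0.44), the myeloid receptor Trem2 (-0.18) and the plasma protein Orm2 (-0.12), are known for other roles. The lists of lipid storage as a whole did not lie below additivity: the median was 0.00 for lipid droplet and lipolysis genes (5 of 11 above 0) and 0.07 for triglyceride assembly (5 of 7), with the droplet assembly protein Fitm2 at 0.31. Cidec was at 3.11 with PBS, 6.21 with daidzein, 4.44 with PT and 6.81 with both (log2). Plin1 was at 0.84, 3.39, 2.23 and 4.32, and Adipoq at 4.0, 6.31, 5.08 and 7.15. In all 3 both agents together gave the highest level, and PT added 0.60, 0.93 and 0.84 to the level with daidzein, against 1.33, 1.39 and 1.08 without it. No spot on the arrays was saturated.

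Genes with smaller increases with daidzein lay above additivity. Again without GAA probes, the median departure was 0.21 for 537 with an averaged daidzein difference of 0.32 to 0.58 (log2), 0.26 for 171 with up to 2-fold and 0.26 for 98 with up to 4-fold. Of these groups 477, 161 and 83 genes lay above 0. For the 98 the median daidzein difference was 1.1 without PT and 1.41 with it, and the PT difference 0.40 and 0.70. The groups lower with daidzein had medians from -0.05 to -0.01. The averaged daidzein difference and the departure come from the same 4 arrays, so the noise of an array enters both.

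Pparg, the nuclear receptor that directs adipocyte differentiation, belongs to the genes above additivity. It was at 2.97 with PBS, 4.0 with daidzein, 3.37 with PT and 4.77 with both (departure 0.37). Its partner Cebpa was at -0.19, 1.34, 0.54 and 2.29 (0.22), and the oxysterol receptor Nr1h3 (LXRa) at 1.42, 2.72, 2.01 and 3.58 (0.27). Each thus had the order PBS, PT, daidzein, both. Klf5, an early factor of adipogenesis, was lowest with both agents at -0.32, from 0.71 with PBS (-0.47). Over the 10 adipogenic transcription factors measured, 5 lay above 0 and 5 below, with a median of 0.02, which is close to the members' median.

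**Figure D4:**
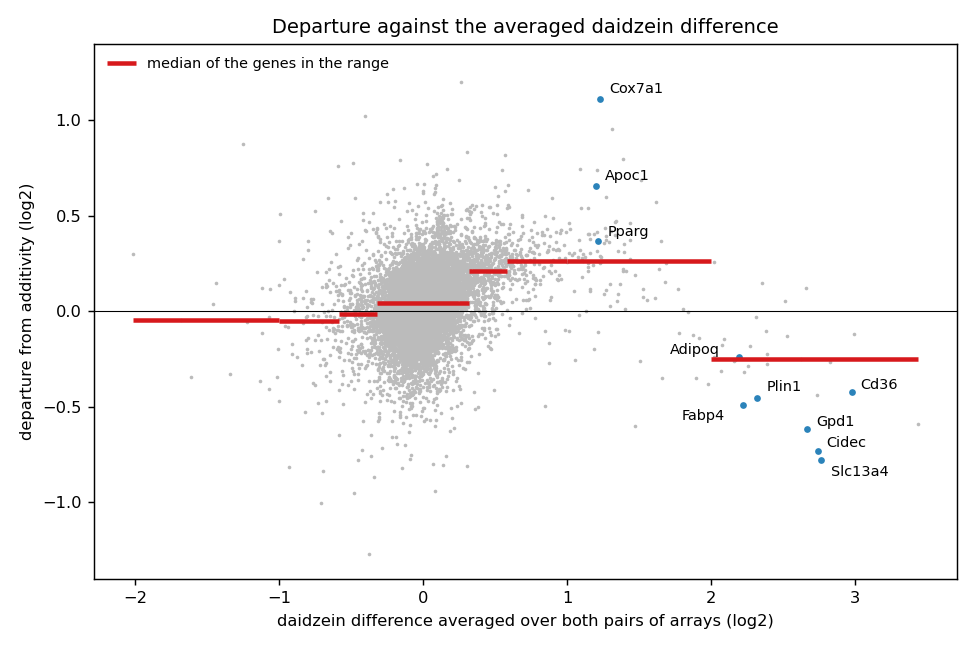
Departure from additivity (log2) of each brighter gene without a GAA probe against its daidzein difference averaged over both pairs of arrays (log2); red lines give the median in each range, and 2 genes beyond the axis are not drawn. The medians lie near 0.26 between 1.5-fold and 4-fold and at -0.25 above 4-fold, where Cidec, Gpd1 and Plin1 lie.

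Whether 2 agents exceed additivity depends on the scale for genes that are higher with each. Of 78 members at least 1.5-fold higher with each agent on average, 42 lay above additivity on the log2 scale and 36 below, with a median of 0.02. On the linear scale, where the increments over PBS are summed, 77 of the 78 lay above the sum, and the median signal with both agents was 1.5 times it. Gpd1, below additivity on the log2 scale, was at 1.47 times the linear sum, Cidec at 1.29 times and Adipoq at 1.46 times. Most positive in this class were Cox7a1, Ltc4s, the selenium-binding protein Selenbp1 (0.74) and the alanine aminotransferase Gpt (0.69). The 6 members at least 1.5-fold higher with PT and 1.5-fold lower with daidzein all lay below 0 (median -0.75), and each of their probes holds the GAA repeat.

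Genes of mitochondrial respiration lay above additivity with few exceptions. All 37 measured genes of complex I were above 0 (median 0.21), as were all 14 of complexes II and III (0.28) and all 13 of cytochrome c oxidase (0.24); for the ATP synthase it was 14 of 15 (0.21). Most single departures were small: 3, 4, 2 and 1 of them reached the threshold of 0.3219, as did 4.19% of all members. Ndufb6 of complex I lay just under the threshold (0.3204). In the authors' series table the medians were smaller, at 0.12 for complex I, 0.19 for complexes II and III, 0.13 for cytochrome c oxidase and 0.0984 for the ATP synthase. Cycs, the electron carrier cytochrome c, was at 5.13 with PBS, 5.88 with daidzein, 5.29 with PT and 6.46 with both (0.43, and 0.39 on its other probe). Uqcrfs1, the iron-sulfur subunit of complex III, was at 3.90, 4.52, 4.07 and 5.03 (0.34). The median PT difference of these lists was between 0.00 and 0.04 without daidzein and between 0.23 and 0.32 with it.

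The same order held for other mitochondrial lists. Of 76 mitochondrial ribosomal protein genes 74 were above 0 (0.20), of 26 import and chaperone genes 25 (0.18), of 18 TCA cycle genes 16 (0.22) and of 20 genes of fatty acid oxidation 18 (0.23). Idh3a, a subunit of isocitrate dehydrogenase, was at 2.77, 3.74, 3.00 and 4.35 in the order PBS, daidzein, PT and both (0.38). Hadhb, of the trifunctional protein of beta-oxidation, was at 3.25, 3.91, 3.27 and 4.41 (0.49). Cpt2, a carnitine palmitoyltransferase of fatty acid entry into the mitochondrion, was at 3.06, 3.75, 3.26 and 4.34 (0.39, and 0.65 with the mean over its probes). Hadhb hardly differed between PBS and PT and was highest with both. In the authors' series table these 4 medians were 0.13, 0.11, 0.14 and 0.14. Peroxisomal genes had a median of 0.16 (19 of 24 above 0), with the membrane-assembly factor Pex16 at 0.41.

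Of 17 glycolysis genes 16 lay above 0 and 7 at 0.32 or more, against 62.8% and 4.19% of all members. The list's median was 0.31. It depended on the normalization: it was 0.16 after quantile normalization or cyclic loess and 0.15 in the authors' series table. Complexes II and III were at 0.18, 0.19 and 0.19 in that order. After quantile normalization complex I and cytochrome c oxidase were at 0.13 and the ATP synthase at 0.09. With either agent alone the glycolysis list was not above PBS. Its median difference was -0.06 for PT alone and -0.07 for daidzein alone, whereas PT added to daidzein gave 0.28. Ldha, lactate dehydrogenase A, was at 7.77 with PBS, 7.73 with daidzein, 7.73 with PT and 8.14 with both (0.45), and 2 other probes gave 0.57 and 0.60. Aldoa, an aldolase, was at 8.25, 8.45, 8.19 and 8.84 (0.45), and Pfkl, a phosphofructokinase, at 1.66, 1.73, 1.47 and 2.06 (0.52). Pgk1 (0.53) and Gapdh (0.31, and 0.11 after quantile normalization) were similar, but the files place both probes on another chromosome than RefSeq places the gene (3 in place of X, and 7 in place of 6), so a related copy cannot be told apart; 7 further Gapdh probes had 0.37 to 0.51.

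Some targets of the hypoxia factor HIF1, which is known to control glycolysis genes, were highest with the combination. Egln3, a prolyl hydroxylase that marks HIF for destruction, was at -0.27, -0.37, -0.18 and 0.41 in the order PBS, daidzein, PT and both (0.69). Bnip3, a mitophagy receptor, was at 4.67, 4.94, 4.70 and 5.62 (0.66, and 0.47 on its other probe). Ero1a, an oxidase of the endoplasmic reticulum, was at 1.34, 0.78, 1.27 and 1.14 (0.43), thus below PBS on every treated array. Over the whole list 15 of 18 genes were above 0 and the median was 0.10, or 0.05 after quantile normalization and -0.02 when set to the spike-ins.

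The core of the HIF response element, ACGTG, was searched on both strands in the 250 bases before each gene's start in RefSeq (GRCm38.p6). It was found in 9 of 14 HIF1 targets with a window and in 8 of 16 glycolysis genes, against 18.5% of 27025 genes. Of 11 members of the 2 lists at 0.32 or more above additivity, 7 hold it. That is close to the share in the whole lists (9 of 14 and 8 of 16). The whole lists include these 11 genes, so the shares do not compare them with the rest of their lists. A link between the core and the departure was not tested. The stretches of all 7 are given here, with ACGTG or its reverse complement in capitals and distances counted back from the start. They include Pgam1, the phosphoglycerate mutase (departure 0.37), and Aldoa has a further annotated start with the same stretch. A match is a description of the letters and not of binding.
Egln3, chr12:54204084-54204118, minus strand, 244 to 210 bases before the start: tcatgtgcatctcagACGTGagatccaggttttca
Bnip3, chr7:138909594-138909629, minus strand, 123 to 88 bases before the start: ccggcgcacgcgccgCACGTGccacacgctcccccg
Ldha, chr7:46845644-46845789, plus strand, 160 to 15 bases before the start: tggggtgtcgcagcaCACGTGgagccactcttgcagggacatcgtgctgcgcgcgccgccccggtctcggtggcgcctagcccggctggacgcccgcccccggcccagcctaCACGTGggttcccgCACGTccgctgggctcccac
Ero1a, chr14:45318616-45318650, minus strand, 78 to 44 bases before the start: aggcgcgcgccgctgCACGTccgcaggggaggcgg
Pgk1, chrX:106186935-106186988, plus strand, 165 to 112 bases before the start: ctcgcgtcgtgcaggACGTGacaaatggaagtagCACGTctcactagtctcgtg
Aldoa, chr7:126799361-126799395, minus strand, 217 to 183 bases before the start: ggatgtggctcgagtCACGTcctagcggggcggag
Pgam1, chr19:41911742-41911776, plus strand, 129 to 95 bases before the start: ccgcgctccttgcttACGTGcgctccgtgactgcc

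Other motifs were searched in the same windows. TCACNCCAC, the sterol response element, was found in 1 of 14 cholesterol synthesis genes and 2 of 18 fatty acid synthesis genes, against 1.22% of all. TTTGAA, the core of the cell cycle homology region, was found in 8 of 22 mitosis genes and 3 of 24 replication genes, against 18.3%. The motifs were chosen after the medians of the lists were known.

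Genes of fatty acid and cholesterol synthesis and LXR targets lay moderately above the members' median. Genes of sterol uptake and its control lay close to that median (0.05, 8 of 9 above 0). All 18 cholesterol synthesis genes were above 0 (0.19), and Fdps, the farnesyl diphosphate synthase, had the largest departure: it was at 3.17 with PBS, 3.42 with daidzein, 3.25 with PT and 4.13 with both (0.63). Acat2, an acetyl-CoA acetyltransferase, lay just under the smaller threshold (0.3211). Of 21 genes of fatty acid synthesis 17 were above 0 (0.19), with the citrate carrier Slc25a1 at 0.39 and the acyl-CoA synthetase Acsl1 at -0.35. For LXR targets the median was 0.17 (8 of 9 above 0), and 0.10 with normexp. Apoc1, an apolipoprotein, was at 1.89, 2.76, 2.57 and 4.10 (0.66), and the cholesterol exporter Abca1 at 1.57, 2.42, 1.98 and 3.11 (0.28). In both genes each agent alone stood above PBS and the combination was highest. The median was 0.07 for adipokines (8 of 15 above 0) and 0.08 for fatty acid uptake genes (7 of 11).

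Proliferation genes, which were lower with daidzein, had positive departures. All 26 mitosis and spindle genes were above 0 (median 0.22, 5 at 0.32 or more, which 4.19% of all members reached). Their median daidzein difference was -0.46 without PT and -0.19 with it, and PT alone gave -0.02. Birc5 (survivin) was at 3.65 with PBS, 3.20 with daidzein, 3.56 with PT and 3.56 with both (0.45, and 0.58 on its other probe). Cdc20, an activator of the anaphase-promoting complex, was at 3.01, 2.40, 2.81 and 2.62 (0.42). Of 29 DNA replication genes 26 were above 0, with a median of 0.15, and none reached 0.32; after quantile normalization it was 0.07.

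Of 17 clustered histone genes 16 lay above 0 and 8 at 0.32 or more, against 62.8% and 4.19% of all members. The list's median was 0.32. H4c12 was at 2.74, 2.89, 2.65 and 3.31 in the order PBS, daidzein, PT and both (0.52), and the linker histone H1f5 at 1.47, 0.87, 1.33 and 1.15 (0.42). The first was thus highest with both and the second lower than PBS on all treated arrays. Histone genes are near-identical copies, so single members are uncertain, and the median GC content of their probes was 51.7%, in the range where probes of all kinds had higher departures. With departures adjusted for probe GC the list's median was 0.29, and it was 0.22 after quantile normalization.

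Genes of protein synthesis and turnover depended on the scale. Cytosolic ribosomal proteins had a median of 0.14 (70 of 74 above 0), but -0.01 after quantile normalization and 0.01 relative to the spike-ins. The proteasome was at 0.13 (28 of 31 above 0), with Psma1 at 0.51, and ribosome biogenesis at 0.12 (20 of 25). Reference genes were at 0.12 too (12 of 16 above 0). After quantile normalization the proteasome was at 0.04, ribosome biogenesis at 0.05 and reference genes at 0.01. The endoplasmic reticulum chaperones were at 0.02 and heat shock genes at 0.11.

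**Figure D5:**
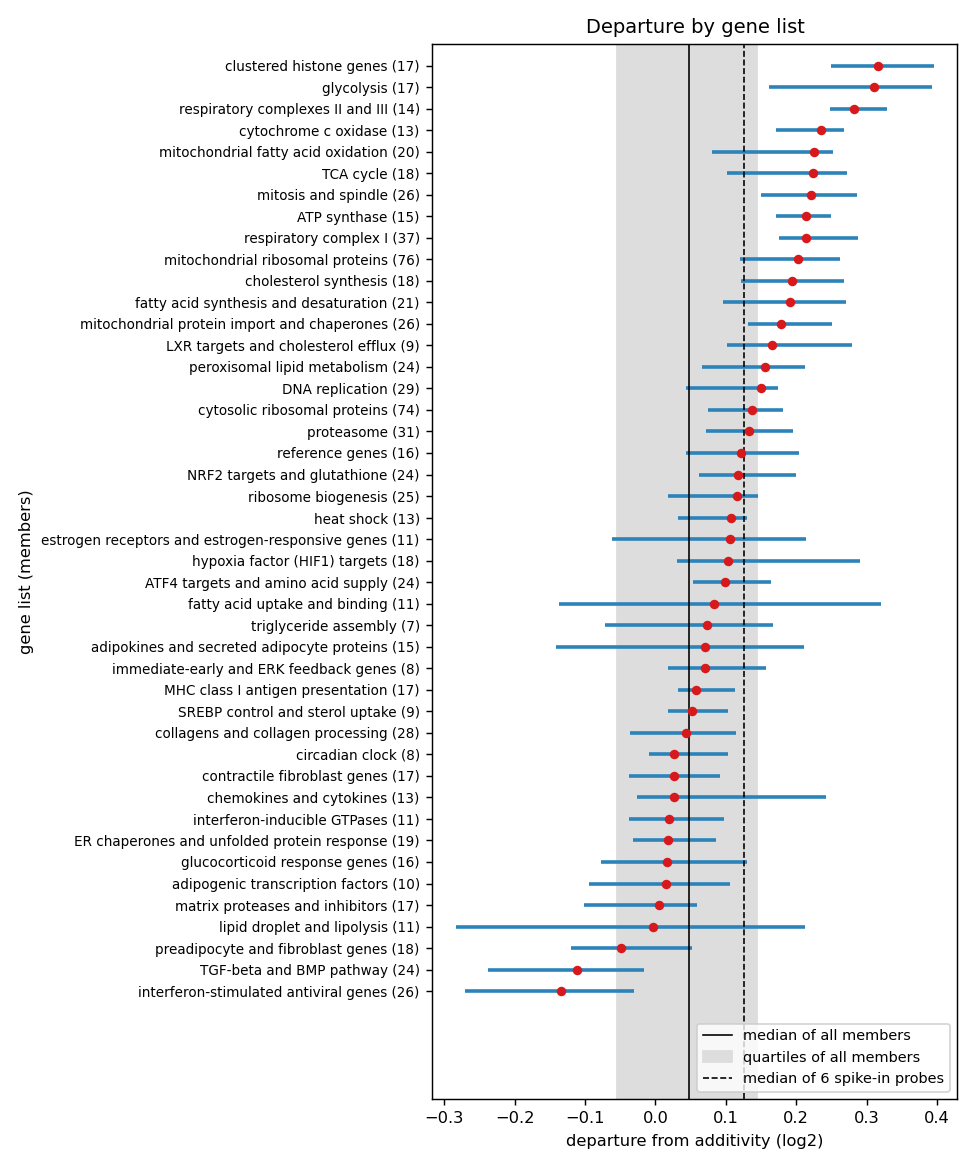
Median (red) and quartiles (blue) of the departure from additivity (log2) for gene lists with 5 or more measured members, whose number is in brackets; the grey band and solid line give the quartiles and median of all members and the dashed line the median of 6 spike-in probes. Histone, glycolysis and respiratory lists lie to the right of both lines, and the interferon and TGF-beta lists to the left.

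Antiviral genes induced by interferon lay below additivity. Of 26 measured, 21 were below 0, with a median of -0.13, which was -0.03 with the array median in place of the 75th percentile. At 0.32 or more, 4 lay below and 1 above, against 2.98% and 4.19% of all members. Oas1a, a sensor that activates RNA decay, was at 2.77 with PBS, 2.0 with daidzein, 2.61 with PT and 1.37 with both (-0.47, and -0.42 on its other probe). Oasl2 was at 3.47, 2.98, 3.21 and 2.24 (-0.48) and Ifi44 at 1.54, 0.98, 1.46 and 0.38 (-0.53). In these 3 the combination gave the lowest level, and the PT difference was -0.63, -0.74 and -0.60 with daidzein against -0.16, -0.26 and -0.08 without it. Rsad2 (viperin) went the other way, with -0.89 without daidzein and -0.48 with it (departure 0.41). Interferon-inducible GTPases had a median of 0.02 and MHC class I genes 0.06, which is close to the members' median.

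The TGF-beta and BMP pathway also lay below additivity, with 19 of 24 genes below 0 and a median of -0.11. At 1.5-fold or more below lay 3 of them, against 0.616% of all members. With the array median as the zero the list's median was -0.01. Grem1, a secreted BMP antagonist, was at 1.74, 1.22, 1.70 and 0.36 in the order PBS, daidzein, PT and both (-0.81). Smad6, an inhibitor inside the cell, was at -0.87, -0.61, -0.47 and -1.02 (-0.82). The BMP-responsive inhibitors of DNA binding Id2 and Id3 were higher with daidzein, and less so with PT present: Id2 was at -1.26, 0.51, -1.01 and 0.16 (-0.60), and Id3 at 2.13, 3.22, 2.40 and 2.99 (-0.49). The first 2 genes were lowest with both agents, the other 2 were not. Genes of preadipocytes and fibroblasts lay at a median of -0.05 (12 of 18 below 0) and collagens at 0.04 (17 of 28 above 0). The values for collagens were close to those of all members (0.05, with 62.8% above 0).

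Among further genes named by list, the chemokine Cxcl10 was at 0.90 with PBS, 0.59 with daidzein, 0.09 with PT and 0.40 with both (0.62), and complement C3 at 7.55, 7.75, 7.79 and 8.44 (0.45). The adipokine Rarres2 (chemerin) was at 3.20, 4.29, 3.94 and 5.39 (0.37) and Hsd11b1, which activates glucocorticoids, at 0.33, 1.89, 1.05 and 2.86 (0.25). C3, Rarres2 and Hsd11b1 were highest with both agents. The median was 0.11 for estrogen-responsive genes (8 of 11 above 0, against 62.8% of all members), and 0.06 without C3. It was 0.03 for circadian clock genes and 0.02 for glucocorticoid response genes. Myeloid, endothelial, testis and muscle markers had 4, 2, 4 and 3 measured members.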

How the data were processed

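RNA of 4 cultures was read on 1 Agilent array each. The deposited values are a linear intensity per spot, already background-subtracted by Feature Extraction, with the raw mean and local background intensity and quality flags, all per the file headers. The headers give version 10.7.1.1, the submitters' processing notes 9.5.1.1. The deposited series table, also a linear intensity, was used as an alternative. Control and outlier spots were left out, the log2 intensity minus the array's 75th percentile was taken, and a gene was read by its probe with the highest mean. Of the members, 9070 matched the RefSeq table by accession and 535 by symbol or synonym, and 907 were renamed from it. There are no replicates and no test: counts, medians and the share of all genes called are given instead. Members and gene lists were chosen with earlier results of these data known; probe repeats (the 4 reported, and runs of A and of T), satellite probes, GC ranges, ranges of daidzein difference, promoter motifs, the spike-in scale and the rules for calling an alternative different were chosen after values were seen. Named genes are the 12 most positive and 12 most negative with a symbol, up to 4 per list with the largest departure, the extremes of the class higher with both agents, Adipoq and the genes at the limit of level; the text gives some of these, with GAA probes and satellite genes added. Tools were Python 3.11.15, pandas 2.3.3 and limma 3.58.1 (for the alternatives), and the code was tested on simulated arrays. 48 gene lists were used.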

Additional observations from a re-analysis of the deposited data

Results flagged for a closer look

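For 8 named genes the PT difference was at least 0.32 in size (log2) in opposite directions without and with daidzein; with 1 array per group that difference was not tested. The culture with PT was below that without it in the absence of daidzein and above it in its presence for Prl2c5 (-0.33 and 0.54, departure 0.88), Zmynd19 (-0.36 and 0.43, 0.79), Spr (-0.42 and 0.35, 0.77) and Il3ra (-0.39 and 0.37, 0.76). It went from higher to lower for Dse (0.68 and -0.32, departure -1.0), Smad6 (0.41 and -0.42, -0.82), Gab3 (0.43 and -0.38, -0.81) and Gcm1 (0.42 and -0.36, -0.78). The probes of Gab3 and Gcm1 hold a GAA repeat. Groups of 1 array allow no check for a sample far from the others.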

How the results depend on the processing

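Without a replicate no value has an error of its own, and a slide position or a culture cannot be told apart from a departure. Of the alternatives tried (background treatment, normalization, scaling, probe choice and filters), those not named here left the counts of 43 members above and 75 below additivity at 1.5-fold within 1.5 times. The count above was 28 with normexp and 28 with no background subtraction, and 111 with the median in place of the 75th percentile. With no filter on dim probes 1777 lay above and 2451 below and the SD was 0.919. Among the upper 1 of 3 parts by level alone, which holds fewer genes, 8 lay above and 33 below. With the spike-ins set to 0, chosen after seeing the data, the counts were 18 and 147, and without GAA-repeat probes, also chosen later, 35 lay below. Of the members higher with both agents, 77 lay above additivity on the linear scale.

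The median of genes lower with daidzein and not with PT was -0.08 and became 0.0239 with the median in place of the 75th percentile. Cytosolic ribosomal proteins were at -0.0124 with quantile normalization, at -0.0043 with cyclic loess and at -0.0137 in the authors' series table. With the spike-ins set to 0, HIF1 targets were at -0.0223, ribosome biogenesis at -0.009, NRF2 targets at -0.0076, heat shock at -0.0179, estrogen-responsive genes at -0.0193 and reference genes at -0.0045. No other list at 0.1 or more in size changed sign in the alternatives run, but many medians shrank or grew. Of 27 such lists, the median moved by over 1.5 times for 19 with quantile normalization, 16 with cyclic loess, 18 in the authors' series table, 11 with normexp, 11 with no background subtraction, 17 with the median in place of the 75th percentile and 27 with the spike-ins set to 0. With quantile normalization 18 of the 19 moved to a smaller or opposite value, and with the spike-ins 25 of the 27. All lists that moved did so with cyclic loess, the series table, normexp and no background subtraction. With the array median only 2 of the 17 did, and the rest grew. Departures of named genes moved by at least the members' SD of 0.183 in 27 of 2299 recomputations. A zero set to the array median or to the spike-ins shifts all genes alike, by less than this SD, so it could not add to the 27. Over the alternatives run, the median of genes higher with daidzein and not with PT lay between 0.14 and 0.37, and that of GAA-repeat probes between -0.64 and -0.42. No paired analysis was possible because each group has 1 array.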
